A study of Mus musculus with 4 samples.

Results

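The genes described here encode the enzymes that bring pyruvate into the mitochondrion, turn the citrate cycle, and feed glutamine and glutamate carbon into it. They were taken by name from the deposited count table: 34 genes, of 24062 in the table, chosen for their function, with succinate dehydrogenase left out. Earlier results of these data were known when the list was made. Of the 34, 33 passed the filter on low counts and were tested. The remaining one, Gpt2 (mitochondrial alanine aminotransferase), had 4 and 9 counts in the SPF libraries and 4 and 7 in the GF libraries.

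Pyruvate made by glycolysis enters mitochondria through a carrier built of MPC1 and MPC2. The pyruvate dehydrogenase complex turns it into acetyl-CoA, and kinases switch that complex off while phosphatases switch it on. Citrate synthase joins acetyl-CoA to oxaloacetate, and the cycle oxidises the citrate step by step, yielding NADH and returning oxaloacetate. Glutamine carbon enters as 2-oxoglutarate, by way of glutamate. Activated CD8+ T cells are known to raise glutamine uptake and glycolysis as they divide, and memory cells to lean more on mitochondrial oxidation.

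RNA came from gBT-I cells, CD8+ T cells with a transgenic receptor for the gB498-505 peptide of herpes simplex virus. In both groups the donors were SPF gBT-I transgenic mice, and their splenocytes were activated in culture with this peptide and LPS, given IL-1 (as the labels name it) on days 2 and 3, and injected intravenously on day 4. The SPF recipients were specific pathogen free C57BL/6 mice and the GF recipients germ free C57BL/6 mice, with 2 libraries each. The cells were sorted from spleen on day 7 after transfer. All the cells carry one receptor and were activated before transfer, so the recipient is the one difference between the groups that the labels name. The labels give no age, sex or number of recipients per library, and are silent on whether the 2 libraries of a group are different animals. P-values therefore measure only the spread between these libraries, which may be technical.

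Total counts were 11544960 and 14026051 for SPF replicates 1 and 2, and 14219354 and 14431533 for GF replicates 1 and 2. All 11 CD8 T cell markers were detected, with a summed level of 6520 to 8317 CPM (read counts scaled to library size), and Cd8a at 798 to 1021 CPM. The CD4 and regulatory T cell list (5 genes, all detected) summed to 99.3 and 109 CPM in SPF and 69.0 and 87.3 CPM in GF, without overlap of the groups, mostly from Zbtb7b and Cd40lg, while Cd4 itself was at or below 0.520 CPM. The erythroid list (3 of 8 genes detected) summed to 0.844 to 1.65 CPM. No count fell on its 5 haemoglobin genes, while Alas2 had 0.774 to 1.39 CPM. B cell markers (13 of 15 in the table) summed to 119.9 and 146 CPM in SPF and GF replicates 1, against 29.7 and 30.8 CPM in replicates 2. NK cell markers (4 of 6 detected, Klra4 and Klra8 at 0) summed to 51.6 to 73.3 CPM in SPF and 36.9 to 43.9 CPM in GF. The monocyte and dendritic lists were carried by Ly6c2 and Itgax, while Csf1r and Flt3 were at or below 0.520 and 0.173 CPM. Of the other genes on these lists, Xcr1 had 13.5 to 20.3 CPM and Cd68 3.46 to 10.5 CPM. Lyz2 had 4.16 and 4.57 CPM in SPF and GF replicates 1, against 0.570 and 0 CPM in replicates 2. The rest were at or below 0.866 CPM. The part of these markers in the results that follow was not tested.

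None of the 33 tested genes differed between GF and SPF recipients after adjustment. By edgeR's quasi-likelihood test with Benjamini-Hochberg adjustment 0 of 33 passed, and so did 0 of all 11271 tested genes (0%). DESeq2 and the edgeR exact test also called 0 of these genes, where they called 0.0586% and 0.0799% of all genes tested, and limma-voom called 0 (0% of all genes). At an unadjusted p under 0.05 there was 1 gene, Pdk2, beside 3.22% of all genes. With 2 libraries a group, an exact two-sided permutation test of a single gene cannot give a p under 0.33.

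Most of the genes had somewhat lower estimates in GF. The estimate was lower for 23 and higher for 10, and the median of the log2 fold changes was -0.17. Over all tested genes that median was -0.00, and 49.7% were higher. Estimates ran from -0.71 (Suclg1) to 0.92 (Pdk2), and 17 of the 33 lay within 0.25 of 0, where 47.6% of all tested genes did. In 5 genes both GF libraries lay above both SPF libraries (Pdk2, Ogdh, Got2, Glud1 and Cs), beside 16.8% of all tested genes, and in 3 both lay below (Suclg1, Fh1 and Dld), beside 16.4%. The 8 of 33 genes without overlap compare with 33.2% of all tested genes, so separated groups were not more frequent here than elsewhere. In bulk RNA, fewer cells of a kind and less RNA per cell cannot be told apart.

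The lower median depended on the libraries used and was not seen without SPF replicate 1. That library was the highest of the 4 libraries for 19 of the 33 genes, where it was the highest for 38.3% of all genes, and GF replicate 2 was the lowest for 17, where it was the lowest for 31.3%. Without SPF replicate 1, 17 of the 33 genes were higher in GF and the median was 0.03. The median was -0.26 without SPF replicate 2, -0.23 without GF replicate 1 and -0.08 without GF replicate 2. By library, the median log2 CPM of the 33 genes was 6.54 and 6.27 in SPF and 6.19 and 5.95 in GF. Over all tested genes it was 5.30 and 5.27 in SPF and 5.28 and 5.24 in GF.

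**Figure D1:**
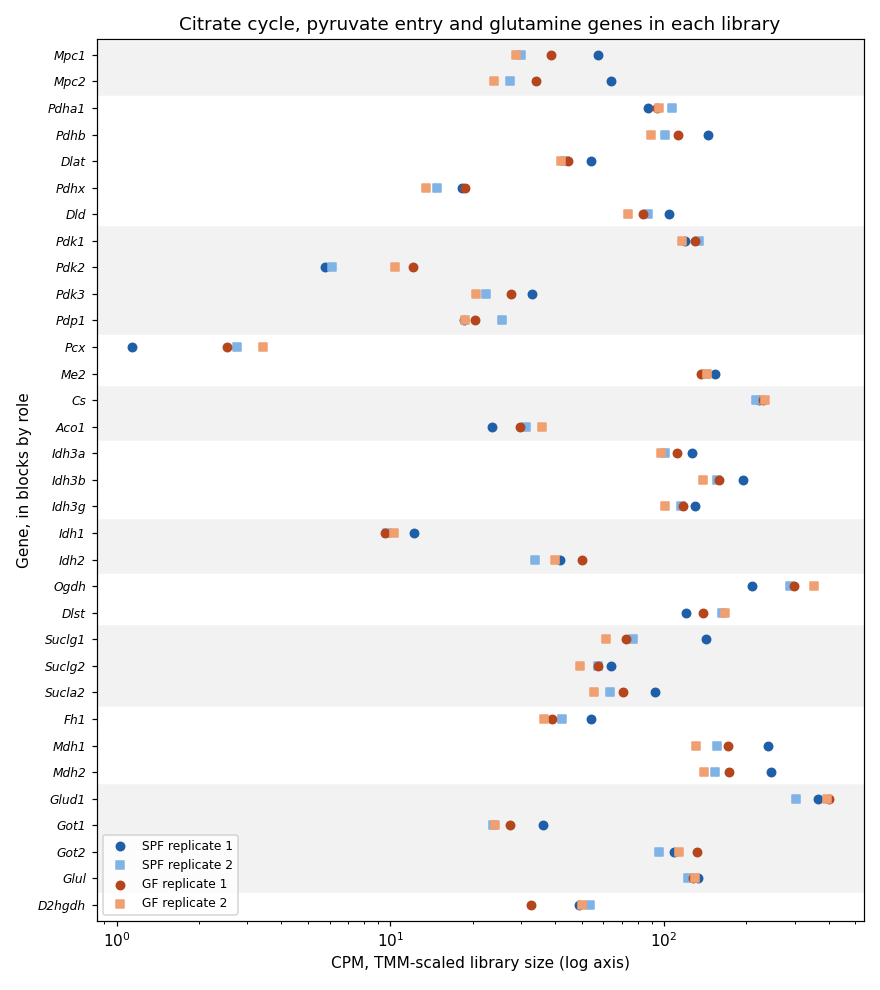
CPM of the 33 tested genes in each of the 4 libraries on a log axis, in blocks by role from pyruvate carriers at the top to 2-hydroxyglutarate clearance at the bottom. Points are single libraries (blue SPF, orange GF, circles replicate 1, squares replicate 2); the SPF and GF points separate for 8 genes, Pdk2 most widely.

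The pyruvate dehydrogenase kinases held the largest difference of the whole set, in Pdk2. PDK enzymes phosphorylate the E1 subunit of pyruvate dehydrogenase and so hold back the entry of pyruvate carbon into the cycle. Pdk2 measured 5.76 and 6.14 CPM in SPF and 12.2 and 10.4 CPM in GF (5.95 ± 0.27 against 11.3 ± 1.2 CPM, SD, n = 2 each). Both GF libraries were thus well above both SPF libraries, and the spread within each group was small beside the gap. The fold was 1.90 (log2 fold change 0.92, SE 0.29). The unadjusted p of 0.0227 by edgeR's quasi-likelihood test ranked 144 of 11271 genes, and the adjusted p was 0.855. Leaving out each of the 4 libraries in turn gave log2 fold changes of 0.81 to 1.02. The counts behind these values were 66 and 87 in SPF and 178 and 146 in GF.

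The other kinases did not share this pattern. Pdk1, a kinase known as a target of hypoxia signalling, measured 119 and 134 CPM in SPF and 129 and 117 CPM in GF, and its groups overlapped (log2 fold change -0.04, SE 0.20). Pdk3 had 22.3 to 32.8 CPM in SPF and 20.5 to 27.6 CPM in GF. The phosphatase gene Pdp1, whose product reverses the kinases' action, had 18.6 to 25.6 CPM in SPF and 18.7 to 20.3 CPM in GF. Pdk2 was the least abundant of the 3 kinases on the scale of CPM per kilobase of transcript, at 2.65 in SPF and 5.03 in GF, against 24.4 and 23.7 for Pdk1. Whether the kinases' differences from each other pass a test was not examined.

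The windows upstream of the transcription start are shown for the genes with separated groups and the largest estimates in each direction, Pdk2 and Ogdh above and Suclg1 and Fh1 below, so that their promoters can be set side by side. In GENCODE the genes span chr11:95026258-95041354 (Pdk2), chr11:6291633-6356642 (Ogdh), chr6:73248382-73276911 (Suclg1) and chr1:175600374-175625635 (Fh1). The windows are the 250 bases before the RefSeq start site (GRCm38.p6) nearest to the gene's start, without bases inside the GENCODE gene, which leaves 224 bases for Ogdh and 127 for Suclg1. They lie, 5′ to 3′ on the gene's strand, at chr11:95041372-95041621 (minus), chr11:6291409-6291632 (plus), chr6:73248255-73248381 (plus) and chr1:175625636-175625885 (minus). Capitals mark matches, on either strand, to CACGTG (the E-box bound by MYC), CCAAT (the box bound by NF-Y) or TGACGTCA (the cAMP response element).
Pdk2: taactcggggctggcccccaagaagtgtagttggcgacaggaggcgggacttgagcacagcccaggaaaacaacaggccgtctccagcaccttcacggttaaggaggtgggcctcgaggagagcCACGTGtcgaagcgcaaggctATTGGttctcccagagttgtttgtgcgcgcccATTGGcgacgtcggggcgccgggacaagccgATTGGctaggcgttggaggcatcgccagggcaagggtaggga
Ogdh: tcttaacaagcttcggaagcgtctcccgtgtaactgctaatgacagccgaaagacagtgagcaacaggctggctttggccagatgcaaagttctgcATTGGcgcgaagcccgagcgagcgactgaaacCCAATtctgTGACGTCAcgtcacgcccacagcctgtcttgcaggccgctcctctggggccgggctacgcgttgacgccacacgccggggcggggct
Suclg1: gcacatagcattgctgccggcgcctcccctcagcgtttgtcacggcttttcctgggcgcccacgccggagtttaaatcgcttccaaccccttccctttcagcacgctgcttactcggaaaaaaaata
Fh1: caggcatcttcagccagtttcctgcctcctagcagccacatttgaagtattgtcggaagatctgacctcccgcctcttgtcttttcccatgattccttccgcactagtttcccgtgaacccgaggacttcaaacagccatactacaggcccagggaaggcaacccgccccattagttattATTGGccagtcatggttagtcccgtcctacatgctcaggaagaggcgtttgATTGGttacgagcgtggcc
The Pdk2 window held 1 E-box, starting at position -126 from the start site, and 3 CCAAT boxes on the reverse strand, at -105, -73 and -42. The Ogdh window held CCAAT boxes at -154 and -122 and a cAMP response element at -113, and the Fh1 window CCAAT boxes at -70 and -19. The Suclg1 window held none of the motifs searched in the bases shown. Matches describe the letters only.

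Over the 31 of 34 genes with an entry there were 41 such windows, of which several belong to one gene and overlap. CCAAT was in 20 of them (48.8%), against 33.8% of 32851 windows of all genes. CACGTG was in 12.2% (of Ogdh, Pcx and Pdk2) against 6.02%, and TGACGTCA in 9.76% (4 windows, of Mdh2 and Ogdh) against 1.55%. Ogdh alone had 6 of the 41 windows. CCGGAAG, the element of ETS factors, was in 7.32% against 6.91%. The core of the NRF1 site was in 2.44% (Sucla2) against 3.74%, and TCAAGGTCA, the element of ERR factors, in 0% against 0.387%. The windows were also richer in G and C than those of all genes, with a median of 61.6% against 52.4%, and held a median of 17 CpG dinucleotides against 6. The windows of all genes were not limited to genes tested here or matched for G and C. Whether these shares differ from those of other expressed genes was not tested.

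In the other genes of pyruvate entry none passed the test. Both subunits of the mitochondrial pyruvate carrier had the same ordering of libraries. Mpc2 measured 64.0 and 27.4 CPM in SPF and 34.1 and 24.0 CPM in GF (log2 fold change -0.65, SE 0.45), and Mpc1 57.4 and 29.9 CPM against 38.6 and 28.8 CPM (-0.37, SE 0.37). SPF replicate 1 was high for both, and the other libraries lay close together. Without SPF replicate 1 the log2 fold change was 0.09 for Mpc2 and 0.17 for Mpc1, and without SPF replicate 2 it was -1.15 for Mpc2, with an adjusted p of 0.0055 by edgeR's quasi-likelihood test, in a fit that has SPF replicate 1 as its only SPF library and calls 11.5% of all genes. These are the shortest transcripts of the set (1025 and 958 nt). With each library's trend by transcript length removed, the values were -0.27 and 0.01. Exons of the antisense transcript 4930506C21Rik overlap 23.1% of the exonic bases of Mpc1, but it had only 7 to 34 counts a library.

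All 5 genes of the pyruvate dehydrogenase complex had estimates below 0, from -0.29 to -0.03. Without SPF replicate 1 they were -0.16 for Pdha1, -0.15 for Dld, -0.008 for Dlat, -0.002 for Pdhb and 0.13 for Pdhx. With the length trend removed they ran from -0.28 (Dlat) to 0.01 (Pdhx). Dld, the E3 subunit shared with 2-oxoglutarate dehydrogenase, measured 103.8 and 87.2 CPM in SPF and 83.4 and 73.7 CPM in GF, with both GF libraries below both SPF libraries (log2 fold change -0.28, SE 0.21). Pdhb, the E1 beta subunit, measured 145 and 101 CPM in SPF and 112 and 89.6 CPM in GF (-0.29, SE 0.27), with overlapping groups. Its partner Pdha1, the E1 alpha subunit on the X chromosome, measured 87.0 and 106.5 CPM against 93.9 and 95.9 CPM (-0.03, SE 0.21). Map3k15 exons overlap 16.1% of the exonic bases of Pdha1 on the opposite strand, with 19 to 179 counts a library. The E2 core gene Dlat had 43.6 to 54.3 CPM in SPF and 42.0 to 44.7 CPM in GF, and the E3-binding gene Pdhx 14.8 to 18.2 CPM and 13.5 to 18.8 CPM.

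Of the other routes of pyruvate and malate, Pcx (pyruvate carboxylase, which makes oxaloacetate) had few reads. It had 13 and 39 counts in SPF and 37 and 48 in GF, or 1.13 and 2.75 against 2.53 and 3.43 CPM (log2 fold change 0.60, SE 0.55). GF replicate 1 lay below SPF replicate 2, so the groups overlapped. The log2 fold change was 0.11 without SPF replicate 1 and 1.38 without SPF replicate 2. Me2, the mitochondrial malic enzyme, measured 153 and 142 CPM in SPF and 137 and 144 CPM in GF (-0.07, SE 0.19), with overlapping groups.

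**Figure D2:**
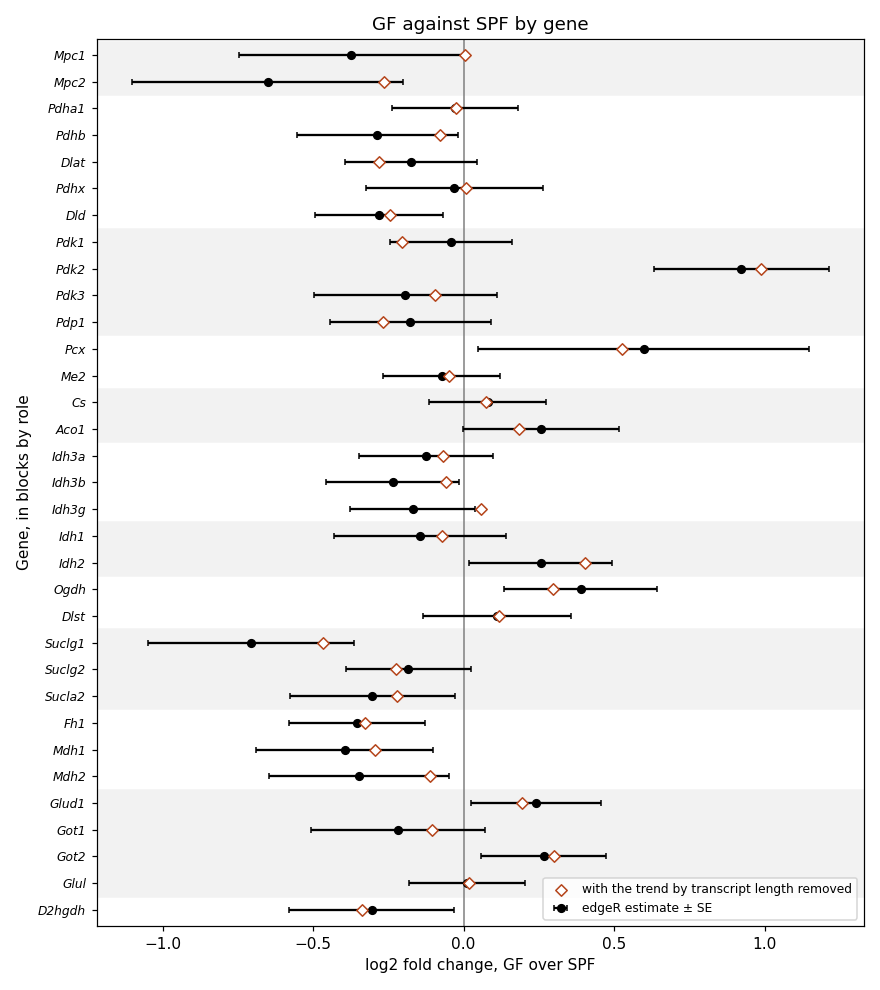
Log2 fold change of GF over SPF for the 33 tested genes, in blocks by role. Black points are the edgeR estimates with 1 SE and open diamonds the estimates with the trend by transcript length removed; the Pdk2 point at 0.92 stands apart on the right, and that of Suclg1 at -0.71 moves to -0.47.

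Citrate synthase (Cs), the entry enzyme, measured 223 and 217 CPM in SPF and 231 and 233 CPM in GF (log2 fold change 0.08, SE 0.19). Both GF libraries were above both SPF libraries, but the gap was a small part of the level. Aco1, the cytosolic aconitase that doubles as an iron sensor, had 23.5 and 31.3 CPM in SPF and 29.7 and 35.8 CPM in GF (0.26, SE 0.26). The groups overlapped, with SPF replicate 1 the lowest.

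The 3 subunits of NAD-linked isocitrate dehydrogenase, the main regulated step of the cycle, all had estimates below 0, from -0.24 to -0.12. Idh3b, a regulatory subunit, measured 195 and 157 CPM in SPF and 159 and 139 CPM in GF (log2 fold change -0.24, SE 0.22). Idh3g had 115 to 130.2 CPM in SPF and 101 to 117 CPM in GF, and Idh3a, the catalytic subunit, 101 to 127 CPM and 97.1 to 112 CPM. No subunit separated the groups, and SPF replicate 1 was the highest library for all 3. With the length trend removed the estimates were -0.07 for Idh3a, -0.06 for Idh3b and 0.06 for Idh3g.

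The NADP-linked enzymes, which make NADPH and run outside the NADH-yielding cycle, differed in sign. Idh2, the mitochondrial enzyme, measured 41.8 and 33.7 CPM in SPF and 50.0 and 40.1 CPM in GF (log2 fold change 0.26, SE 0.24). Idh1, the cytosolic one, measured 12.2 and 9.74 CPM in SPF and 9.56 and 10.3 CPM in GF (-0.14, SE 0.29). In neither did the groups separate, since GF replicate 2 lay below SPF replicate 1 in Idh2.

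The 2-oxoglutarate dehydrogenase complex, which makes succinyl-CoA, had its specific subunits above 0 and its shared subunit Dld below. Ogdh, the E1 subunit, measured 209 and 289 CPM in SPF and 299 and 353 CPM in GF (249 ± 56 against 326 ± 38 CPM, SD, n = 2 each). Its log2 fold change was 0.39 (SE 0.25). The groups did not overlap, though SPF replicate 2 and GF replicate 1 were almost level, and the value was 0.18 without SPF replicate 1 and 0.63 without SPF replicate 2. Dlst, the E2 subunit, measured 119.9 and 162 CPM in SPF and 139 and 166 CPM in GF (0.11, SE 0.25), with overlapping groups and a sign that turned without SPF replicate 1 (-0.09) or GF replicate 2 (-0.03).

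Succinyl-CoA ligase, the step that yields GTP or ATP directly, had the lowest estimate of the set. Suclg1, the alpha subunit common to both forms of the enzyme, measured 142 and 76.9 CPM in SPF and 72.7 and 61.5 CPM in GF (109.5 ± 46.2 against 67.1 ± 7.9 CPM, SD, n = 2 each). The GF libraries lay below both SPF libraries, but SPF replicate 2 was far nearer to them than to SPF replicate 1. The log2 fold change was -0.71 (SE 0.34), with an unadjusted p of 0.0901 and an adjusted p of 0.855 by edgeR's quasi-likelihood test. It was -0.20 without SPF replicate 1 and -1.09 without SPF replicate 2, where the adjusted p was 0.0066 by the same test in that same fit. With the length trend removed (the transcript has 1519 nt) it was -0.47. The beta subunits set the nucleotide. Sucla2, of the ATP form, measured 92.4 and 63.7 CPM in SPF and 70.8 and 55.6 CPM in GF (log2 fold change -0.30, SE 0.27), and Suclg2, of the GTP form, 64.0 and 57.2 CPM against 57.5 and 49.2 CPM (-0.18, SE 0.21). Their groups overlapped.

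Fumarase and the malate dehydrogenases, which close the cycle, had estimates from -0.40 to -0.35. Fh1 (fumarase) measured 54.0 and 42.3 CPM in SPF and 39.0 and 36.3 CPM in GF, with separated groups (log2 fold change -0.35, SE 0.23, and -0.16 without SPF replicate 1). Mdh1, the cytosolic enzyme of the malate-aspartate shuttle, measured 240.0 and 157 CPM in SPF and 171 and 131 CPM in GF (-0.40, SE 0.29). Mdh2, the mitochondrial one, measured 245 and 153 CPM in SPF and 173 and 139 CPM in GF (-0.35, SE 0.30). In both, SPF replicate 1 was far above the rest and GF replicate 1 lay above SPF replicate 2. Without SPF replicate 1 the log2 fold change was -0.05 for Mdh1 and 0.03 for Mdh2. With the length trend removed the estimates were -0.33 for Fh1, -0.30 for Mdh1 and -0.11 for Mdh2.

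On the glutamate side 3 of 4 tested genes had estimates above 0, and those of the mitochondrial enzymes separated the groups. Glud1, glutamate dehydrogenase, which makes 2-oxoglutarate from glutamate, measured 365 and 305 CPM in SPF and 399 and 392 CPM in GF (334.5 ± 42.5 against 395.6 ± 5.0 CPM, SD, n = 2 each). Its log2 fold change was 0.24 (SE 0.22, adjusted p = 0.855 by edgeR's quasi-likelihood test). It was 0.38 without SPF replicate 1 and 0.11 without SPF replicate 2. Got2, the mitochondrial aspartate aminotransferase, measured 108 and 95.7 CPM in SPF and 132 and 113 CPM in GF (0.27, SE 0.21, and 0.15 without GF replicate 1). Exons of Gm45760, a gene not analysed here, overlap it over 434 nt on the opposite strand. With the length trend removed the estimates were 0.20 for Glud1 and 0.30 for Got2. Got1, the cytosolic partner, measured 36.1 and 23.7 CPM in SPF and 27.3 and 24.0 CPM in GF (-0.22, SE 0.29). Glul, glutamine synthetase, which runs the opposite way, measured 133 and 123 CPM in SPF and 128 and 129 CPM in GF (0.01, SE 0.19), with the GF libraries between the SPF ones.

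D2hgdh oxidises D-2-hydroxyglutarate, a by-product that can inhibit 2-oxoglutarate-dependent enzymes of chromatin. It measured 49.1 and 53.5 CPM in SPF and 32.8 and 50.3 CPM in GF (log2 fold change -0.30, SE 0.27). GF replicate 1 alone was low, and the value was -0.03 without it and -0.65 without GF replicate 2.

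Levels were also summed over the genes of each role. The 2-oxoglutarate dehydrogenase genes summed to 433 and 538 CPM in SPF and 521 and 593 CPM in GF, and the glutamate group to 642 and 547 CPM against 686 and 659 CPM. The glutamate group lay above in both GF libraries, and the 2-oxoglutarate group overlapped. Citrate synthase with aconitase also lay above, at 246 and 248 CPM in SPF and 260 and 269 CPM in GF. Most of that sum was Cs and most of the glutamate sum was Glud1, genes that separated the groups by themselves. The pyruvate dehydrogenase complex lay below, at 408 and 353.2 CPM in SPF and 353.0 and 315 CPM in GF. There SPF replicate 2 and GF replicate 1 were almost level. Succinyl-CoA ligase summed to 299 and 198 CPM in SPF and 201 and 166 CPM in GF, and fumarase with the malate dehydrogenases to 539 and 352 CPM against 383 and 307 CPM, both with overlap. The 33 genes together summed to 3469 and 3008 CPM in SPF and 3203 and 3039 CPM in GF, so that both GF libraries lay between the SPF libraries.

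**Figure D3:**
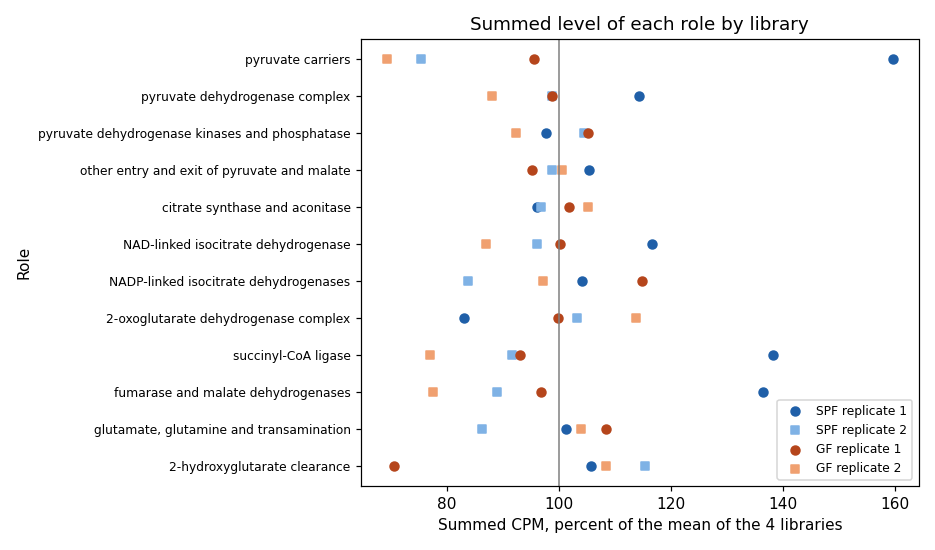
Summed CPM of each role in each library, as a percentage of the mean of the 4 libraries. SPF replicate 1 (dark blue circles) is the highest point for pyruvate carriers, succinyl-CoA ligase and the fumarase and malate dehydrogenase group. It is also the highest for the pyruvate dehydrogenase complex, NAD-linked isocitrate dehydrogenase, and other entry and exit of pyruvate and malate. It is the lowest for 2-oxoglutarate dehydrogenase and for citrate synthase and aconitase.

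Ratios of partner genes within a library do not depend on how libraries are scaled, but no length trend was removed from them. Partners differ in length, as with Pdk1 (5185 nt) and Pdk3 (2115 nt). The ratio of Got2 to Got1, in CPM per kilobase, was 2.44 and 3.29 in SPF and 3.93 and 3.84 in GF. That of Idh2 to Idh1 was 4.51 and 4.56 in SPF and 6.90 and 5.14 in GF. Both ratios were thus higher in both GF libraries, with an exact two-sided permutation p of 0.333 each over 2 against 2 libraries, the smallest that this design can give (0.832 after Benjamini-Hochberg adjustment over the 5 ratios computed). The ratio of Mdh2 to Mdh1 was 1.49 and 1.42 in SPF and 1.48 and 1.55 in GF (exact permutation p = 0.667), and the groups overlapped. Those of Suclg2 to Sucla2 (0.459 and 0.594 against 0.538 and 0.586) and of Pdk1 to Pdk3 (1.48 and 2.45 against 1.91 and 2.32) had the GF libraries between the SPF libraries (exact permutation p of 1 for both).

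**Figure D4:**
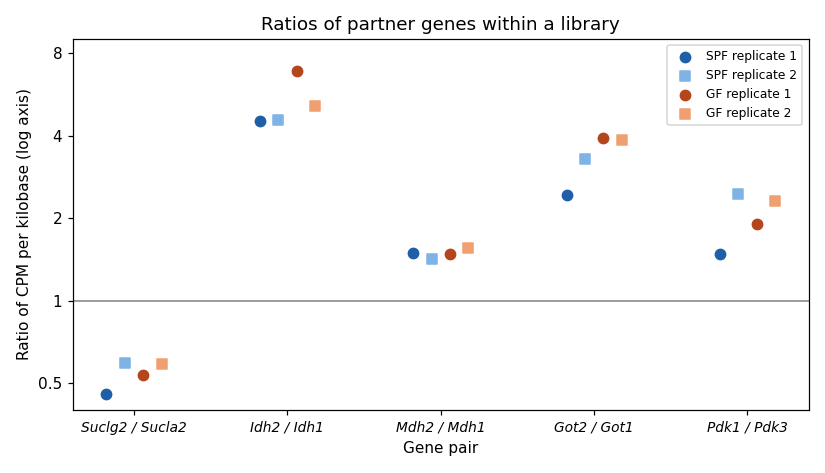
Ratios of CPM per kilobase for 5 pairs of partner genes within each library, on a log axis. The GF points lie above the SPF points for Idh2 over Idh1 and for Got2 over Got1, and overlap them for the other pairs.

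On the scale of CPM per kilobase of transcript, Mdh2 stood highest of the 33 tested genes with a mean of 122 over the 4 libraries, followed by Glud1 at 108 and Idh3b at 100.5. Their ranges over libraries were 95.8 to 168, 89.8 to 118 and 86.1 to 120.5, so the order among them was not resolved. Pcx stood lowest of the 33 tested genes, at 0.279 to 0.845, below the lowest value of Pdk2, 2.57. Idh1, at 4.15 to 5.31, overlapped with Pdk2 at 2.57 to 5.41. Within the pyruvate dehydrogenase complex Pdhb had a mean of 74.0, Dld and Pdha1 34.2 and 33.7, and Dlat and Pdhx 11.4 and 6.51. The range of Pdhb (59.2 to 95.9) lay above those of the other subunits, while those of Dld (29.0 to 40.8) and Pdha1 (30.6 to 37.4) overlapped.

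Differences between libraries followed transcript length, within groups as well as between them. Across the 33 genes, which are not independent and share the 4 libraries, the difference between the SPF replicates (2 minus 1) had a Spearman's rho with length of 0.796. The same difference within GF had 0.721, and GF over SPF had 0.538. Across 11194 tested genes with an annotated length the values were 0.59, 0.529 and 0.417. The set had shorter transcripts than all tested genes (medians of 2530 and 2911 nt). Replicate 2 was lower than replicate 1 for 24 of 33 genes in SPF and 23 of 33 in GF, with median log2 differences of -0.26 and -0.18. B cell markers differed by replicate number in the same direction, and their part in this was not tested. With the length trend removed, the median of GF over SPF was -0.07, 13 of 33 genes were higher in GF, and 0 passed. Pdk2 lay off the trend, at 0.99 after its removal.

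**Figure D5:**
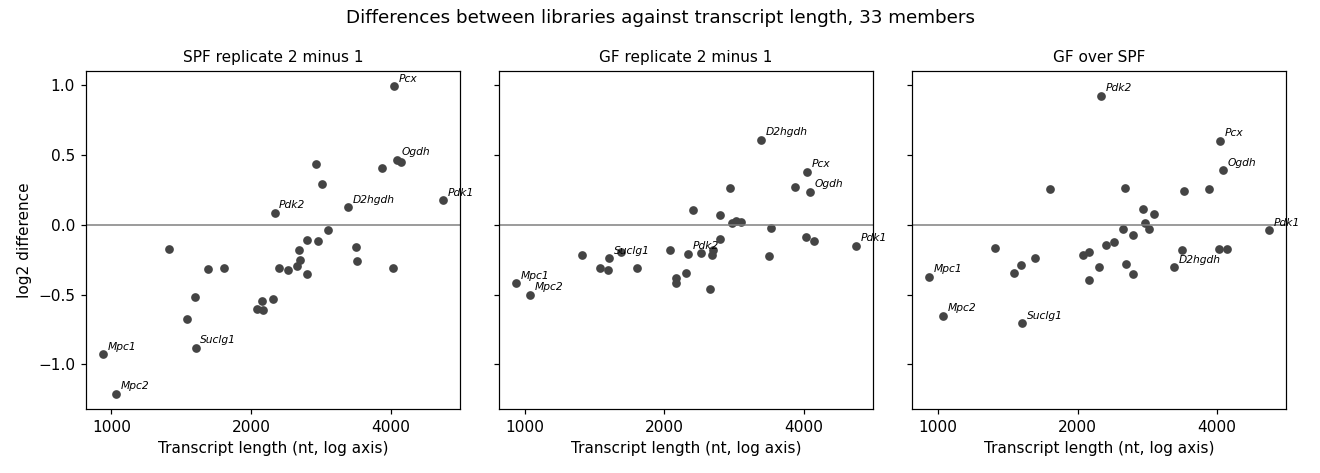
Log2 differences against transcript length (log axis) for the 33 tested genes: between the SPF replicates, between the GF replicates, and GF over SPF. The short transcripts Mpc1 and Mpc2 are at the lower left of each panel, and in the last one Pdk2 stands above the other genes of its length.

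The other genes of the pathway, 53 listed of which 41 were tested, gave 0 called, with 15 estimates above 0 and 26 below (median -0.07). The groups were separated upward in 4 and downward in 11, where all tested genes had 16.8% and 16.4%. In the cycle, Sdha, the flavoprotein of succinate dehydrogenase, had 294 and 285 CPM against 259 and 274 CPM (log2 fold change -0.12, SE 0.20), and Sdhb had the smallest p of that group (-0.38, SE 0.29). Ldha, which turns pyruvate to lactate, had -0.29 (SE 0.25), and Pck2, which draws oxaloacetate out of mitochondria as phosphoenolpyruvate, 16.3 and 16.2 CPM against 18.6 and 19.5 CPM.

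Among enzymes that use glutamine or glutamate, the genes differed in sign. Cad, the first enzyme of pyrimidine synthesis, measured 74.5 and 131 CPM in SPF and 138 and 178 CPM in GF (log2 fold change 0.62, SE 0.33). Ppat, the first enzyme of purine synthesis, measured 49.3 and 53.5 CPM in SPF and 38.2 and 40.8 CPM in GF (-0.38, SE 0.20), with both GF libraries well below. Gpt, Asns, Ctps and Psat1 also had separated groups, with log2 fold changes of -0.44 to -0.09. Slc25a22, a mitochondrial glutamate carrier, measured 60.2 and 62.3 CPM in SPF and 80.9 and 75.2 CPM in GF (0.35, SE 0.19), and the amino acid transporter gene Slc7a5 33.5 and 39.0 CPM against 43.1 and 45.8 CPM. Slc25a12, an aspartate-glutamate carrier of the same shuttle as Got2, lay below in GF (-0.16, SE 0.20), as did Nnt, which makes mitochondrial NADPH (-0.31, SE 0.22), and the assembly factor gene Sdhaf2 (-0.33, SE 0.23).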

How the data were processed

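Gene counts came from 2 SPF and 2 GF libraries, made from 1 µg of total RNA with a TruSeq RNA kit per the labels' protocols. The authors deposited whole-number counts for each gene, with no normalization. CASAVA, TopHat, Picard, featureCounts, Subread and edgeR, and build mm10, are named in the submitters' processing notes, while their versions, settings, annotation and use of strand were not given in the sources used here. Columns were matched to samples by the labels.

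Counts were tested with edgeR 4.0.16 (R 4.3.3): TMM scaling, the filterByExpr filter (11271 of 24062 genes), quasi-likelihood F test without covariates, Benjamini-Hochberg adjustment over all tested genes, threshold 0.05, two-sided. The SE was derived from the F statistic and the log2 fold change. CPM of genes uses TMM-scaled library sizes, and marker totals use plain totals. Log2 CPM of single libraries used a pseudocount of 0.5. Values of 3 counts or fewer, up to 0.21 to 0.26 CPM, cannot be told from 0. That limit covers counting error only. Positions, exon overlaps and lengths (1 principal transcript a gene) came from GENCODE M21 (GRCm38, the assembly of mm10), and promoter windows from RefSeq (GRCm38.p6). The length trend was fitted per library by lowess (span 0.3, log2 CPM with a prior count of 2). Counts of replicates differed by more than sampling noise (chi-square per degree of freedom of 94.3 in SPF and 46.5 in GF), so each library was counted once. Between the groups the value was 59.7 and 152.8 for SPF replicate 1 against GF replicates 1 and 2. For SPF replicate 2 it was 31.2 and 19.4, below the value between the SPF replicates.

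The genes, lists and alternatives were chosen with earlier results of these data known. All 34 genes are named. Values in every library were to be given for genes with separated groups and, in each role, for those with the smallest p and the most counts. Of the other genes of the pathway, those with separated groups or the smallest p in their list are named, except some genes that are not reported here. Alternatives were RLE, upper quartile and no scaling, no filter and a filter of 10 counts in every library, DESeq2 1.42.0, limma-voom (limma 3.58.1), the exact test, the replicate number as a block, the length trend removed, both together, and each library left out. Figures were drawn with matplotlib 3.10.9.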

Additional observations from a re-analysis of the deposited data

How the results depend on the processing

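No gene of the set was called under any scaling, filter or other test tried, nor with the length trend removed. With all 4 libraries the count called over all genes was 0 except with DESeq2 (9), the edgeR exact test (9) and the fits with the replicate number as a block. The libraries share only a number, since no label says that it marks an animal, day or batch. Differences of replicate 2 minus 1 correlated between the groups across genes (Pearson's r of 0.734, over genes that are not independent). With the replicate block 1206 genes were called, 2 of them of the set: Pdk2 (log2 fold change 0.92, adjusted p = 0.031 by edgeR's quasi-likelihood test) and Suclg1 (-0.65, adjusted p = 0.020), beside 10.7% of all tested genes. With the replicate block and the length trend removed 227 were called (2.01%) and 0 of the set. Of the 41 other pathway genes, the replicate block called 2, named after their values were seen: Cad (0.66, adjusted p = 0.012 by edgeR's quasi-likelihood test) and Pdpr (1.25, adjusted p = 0.017). Pdpr had 23 and 344 counts in SPF and 187 and 453 in GF, so its groups overlapped, and 0.77 (SE 1.07) without the block. Cad has a transcript of 7137 nt, and its log2 fold change without the block was 0.39 with the length trend removed.

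With each library left out in turn, the number called ranged from 0 to 1327 over all genes and from 0 to 2 in the set (Mpc2 and Suclg1, without SPF replicate 2). The number higher in GF ranged from 10 to 17, the number with separated groups from 13 to 29 (with only 1 library left in a group), and the median log2 fold change from -0.26 to 0.028. A lone library is assumed to vary like the other group. Estimates kept their sign in all alternatives for 19 genes. With the length trend removed the sign turned for Idh3g (0.058), Pdhx (0.0080) and Mpc1 (0.0063), and with the block as well for Idh3g (0.067) and Mpc1 (0.0086); the cause was not tested. It turned in some of the fits without 1 library for these genes, over the ranges given: Dlst -0.091 to 0.34, Glul -0.052 to 0.070, Got1 -0.50 to 0.12, Idh1 -0.31 to 0.028, Idh3a -0.29 to 0.050, Mdh2 -0.65 to 0.031, Mpc1 -0.78 to 0.17, Mpc2 -1.15 to 0.086, Pdha1 -0.16 to 0.12, Pdhx -0.29 to 0.18, Pdk1 -0.12 to 0.043, Pdk3 -0.45 to 0.11, Pdp1 -0.39 to 0.065. Depth limits Pcx and Gpt2 most, which rest on at most 48 counts a library.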
